A study of Mus musculus with 4 samples.

Results

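Type I interferon-induced antiviral genes were followed in the stomach of Hdc-/- and Hdc+/+ mice. The list held 38 named genes, and its members were the genes named by a probe set that carries 1 gene symbol, with the brightest probe set standing for a gene that had several. By this rule 34 of the 38 genes were measured, among 22180 genes in all. The genotype difference did not enter the rule, but the 38 genes were listed with earlier results of these data known. The choice among probe sets used the mean level over the 4 arrays. Of the other 4 genes, Oas1a, Dtx3l and Ifi27l2a were named only by probe sets that also name another gene, and Ifi44 was not analysed here.

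The series compared Hdc-/- with Hdc+/+ mice, both of strain FVB, aged 1 year and kept in a barrier facility free of specific pathogens. Histidine decarboxylase, the product of Hdc, converts histidine to histamine, and the labels do not describe how the gene was disrupted. Washed and minced stomach tissue was used without separating cell types, and total RNA was measured on Affymetrix arrays, 2 for Hdc-/- and 2 for Hdc+/+ stomach. Arrays of a genotype are numbered as biological replicates in their titles. No label states that each came from its own animal, so a p-value here reflects only the spread from array to array, which may be technical.

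Type I interferons are secreted proteins that bind a receptor on the surface of nearly all cells. The receptor activates the kinases Jak1 and Tyk2, and a complex that holds Stat2 and Irf9 then enters the nucleus and switches on a large group of genes through a DNA sequence known as the interferon-stimulated response element. The products of these genes detect viral nucleic acid, block its replication or translation, or adjust the strength of the response. In the mucosa of the gut, interferons can be made by epithelial cells and by leukocytes in the tissue beneath.

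Promoter sequences are shown for the 7 measured members whose 160 bases before the transcript start hold the core of that element, because these members include both the one with the largest and the one with the lowest difference between the genotypes. Sequences are from RefSeq on assembly GRCm38.p6, each written 5′ to 3′ on the strand of the gene and ending at the last base before the start. Capitals mark matches to GAAANNGAAA on either strand, where N is any base, and neighbouring matches may overlap. The regions are chr4:156200819-156200978 (minus strand) for Isg15, chr19:34640729-34640888 (plus strand) for Ifit1, chr19:34583369-34583528 (plus strand) for Ifit3, chr12:26456453-26456612 (minus strand) for Rsad2, chr8:71537473-71537632 (minus strand) for Bst2, chr5:120777660-120777819 (minus strand) for Oas3 and chr7:104465194-104465353 (minus strand) for Trim30a.
Isg15: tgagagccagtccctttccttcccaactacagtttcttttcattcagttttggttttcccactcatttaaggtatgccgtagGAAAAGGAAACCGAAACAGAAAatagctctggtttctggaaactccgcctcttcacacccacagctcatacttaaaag
Ifit1: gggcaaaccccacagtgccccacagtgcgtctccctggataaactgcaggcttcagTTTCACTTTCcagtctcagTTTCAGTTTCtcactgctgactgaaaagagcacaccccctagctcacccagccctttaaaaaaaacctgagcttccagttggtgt
Ifit3: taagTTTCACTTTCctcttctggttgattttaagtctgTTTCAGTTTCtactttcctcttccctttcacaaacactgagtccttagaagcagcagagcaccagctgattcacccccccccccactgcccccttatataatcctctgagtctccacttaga
Rsad2: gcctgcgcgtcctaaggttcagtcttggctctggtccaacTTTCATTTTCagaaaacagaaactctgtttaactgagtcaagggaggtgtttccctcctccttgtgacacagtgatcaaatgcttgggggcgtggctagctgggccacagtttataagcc
Bst2: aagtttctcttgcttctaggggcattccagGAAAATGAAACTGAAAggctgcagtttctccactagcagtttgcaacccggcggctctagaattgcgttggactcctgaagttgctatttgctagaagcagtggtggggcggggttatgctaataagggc
Oas3: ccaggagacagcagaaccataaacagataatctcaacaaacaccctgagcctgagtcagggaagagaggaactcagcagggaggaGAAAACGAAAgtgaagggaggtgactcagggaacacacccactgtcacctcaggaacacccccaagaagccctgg
Trim30a: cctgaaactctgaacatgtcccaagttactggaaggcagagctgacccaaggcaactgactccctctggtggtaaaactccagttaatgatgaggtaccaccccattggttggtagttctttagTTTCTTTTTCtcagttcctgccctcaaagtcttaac

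The RefSeq table held promoters for 25 of the 34 measured members. In the 250 bases before the start, GAAANNGAAA on either strand occurred in 8 of these 25 members (32.0%), against 936 of the 27025 genes with a promoter in the table (3.46%). Isg15 held 3 overlapping matches, which began 78, 72 and 66 bases before the start. Ifit1 held 2, at 104 and 85 bases, and Ifit3 held 2, at 156 and 122 bases. The remaining members with a match were Bst2, Rsad2, Oas3, Stat2 and Trim30a. The shorter core of the gamma-activated sequence, TTCNNNGAA, which reads the same on both strands, occurred in 3 of the 25 members (12.0%), against 2197 of the 27025 genes (8.13%). A match describes these letters in this window and does not show a binding site.

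**Figure D1:**
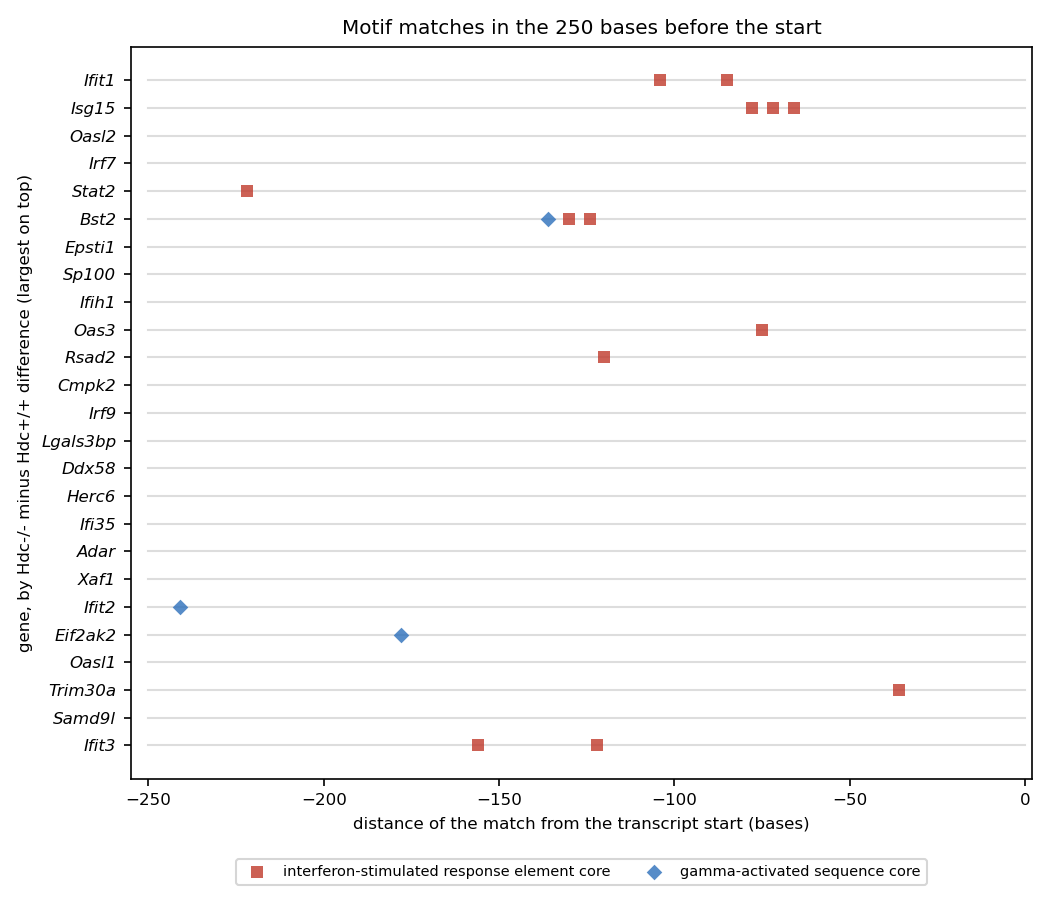
Positions of motif matches (x axis, bases from the transcript start) in the 25 measured members with a promoter, one line per gene, ordered by the Hdc-/- minus Hdc+/+ difference with the largest on top. Red squares are GAAANNGAAA and blue diamonds TTCNNNGAA; Ifit1 at the top and Ifit3 at the bottom both hold 2 red squares.

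The array values are on the log2 scale, so a difference of 1 is a 2-fold change, and they describe 1 gene across arrays rather than one gene against another. Array medians over genes ran from 4.56 to 4.60. Hdc read 3.77 and 4.06 on the Hdc-/- arrays and 3.99 and 3.82 on the Hdc+/+ arrays, near the 32.0th to 36.8th percentile of genes, and no source used here places its probes relative to the disrupted part of the gene, so the genotype labels could not be checked with it. Of the 22180 genes tested by limma with Benjamini-Hochberg adjustment, 1 was higher in Hdc-/- stomach at an adjusted p under 0.05 (0.00451% of genes) and 0 were lower (0%). That gene, named because it was the one that passed, was H2-Ea, a class II histocompatibility gene. H2-Ea read 7.65 and 7.47 on the Hdc-/- arrays and 3.36 and 3.02 on the Hdc+/+ arrays (20.6-fold). A difference in genetic background between the groups was not tested and could not be told apart from the Hdc genotype. Markers of the labelled tissue were bright, and the summed level of 9 gland epithelium genes was between 15.3 and 15.5 on every array. Markers of several other tissues were not even between the groups. The summed log2 level of 7 hepatocyte genes was 8.06 and 8.81 on the Hdc-/- arrays and 12.1 and 13.6 on the Hdc+/+ arrays. That of 7 intestinal epithelium genes was 8.76 and 8.54 on the Hdc-/- arrays and 10.3 and 12.96 on the Hdc+/+ arrays, and that of 4 pancreatic acinar genes was 6.47 and 6.77 on the Hdc-/- arrays and 5.78 and 11.5 on the Hdc+/+ arrays, high on Hdc+/+ replicate 2 alone. The sums were lower on both Hdc-/- arrays for 5 adipocyte genes (8.19 and 8.66, against 9.83 and 10.5 on the Hdc+/+ arrays), 4 squamous epithelium genes (6.15 and 6.29, against 7.27 and 7.64) and 5 endothelial genes (7.29 and 7.07, against 7.43 and 7.71). The same held for 5 fibroblast genes (9.79 and 9.99, against 10.49 and 10.50), although 3 of these 5 had a positive difference. The part of these markers in the results below was not tested.

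As a group, the 34 listed genes, chosen with earlier results of these data known, read higher in Hdc-/- stomach. Their median log2 difference, Hdc-/- minus Hdc+/+, was 0.44 (1.36-fold), against 0.02 over all genes tested. The same median was -0.01 over 34 further interferon-induced genes outside the list. The difference was above 0 in 29 of 34 members (85.3%), against 54.1% of all genes. In 17 members both Hdc-/- values lay above both Hdc+/+ values (17 of 34, against 21.5% of all genes), and in 1 member, Samd9l, both lay below (17.6% of all genes). At an unadjusted p under 0.05, 12 members were higher (35.3%, against 3.68% of all genes) and 0 were lower (4.87% of all genes). By limma 0 members passed after adjustment over all genes, with adjusted p from 0.247 to 0.994. With 2 arrays a group, the half-width of a member's 95% interval had a median of 0.54 on the log2 scale, and an exact permutation test of 1 gene cannot give a p below 0.333.

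**Figure D2:**
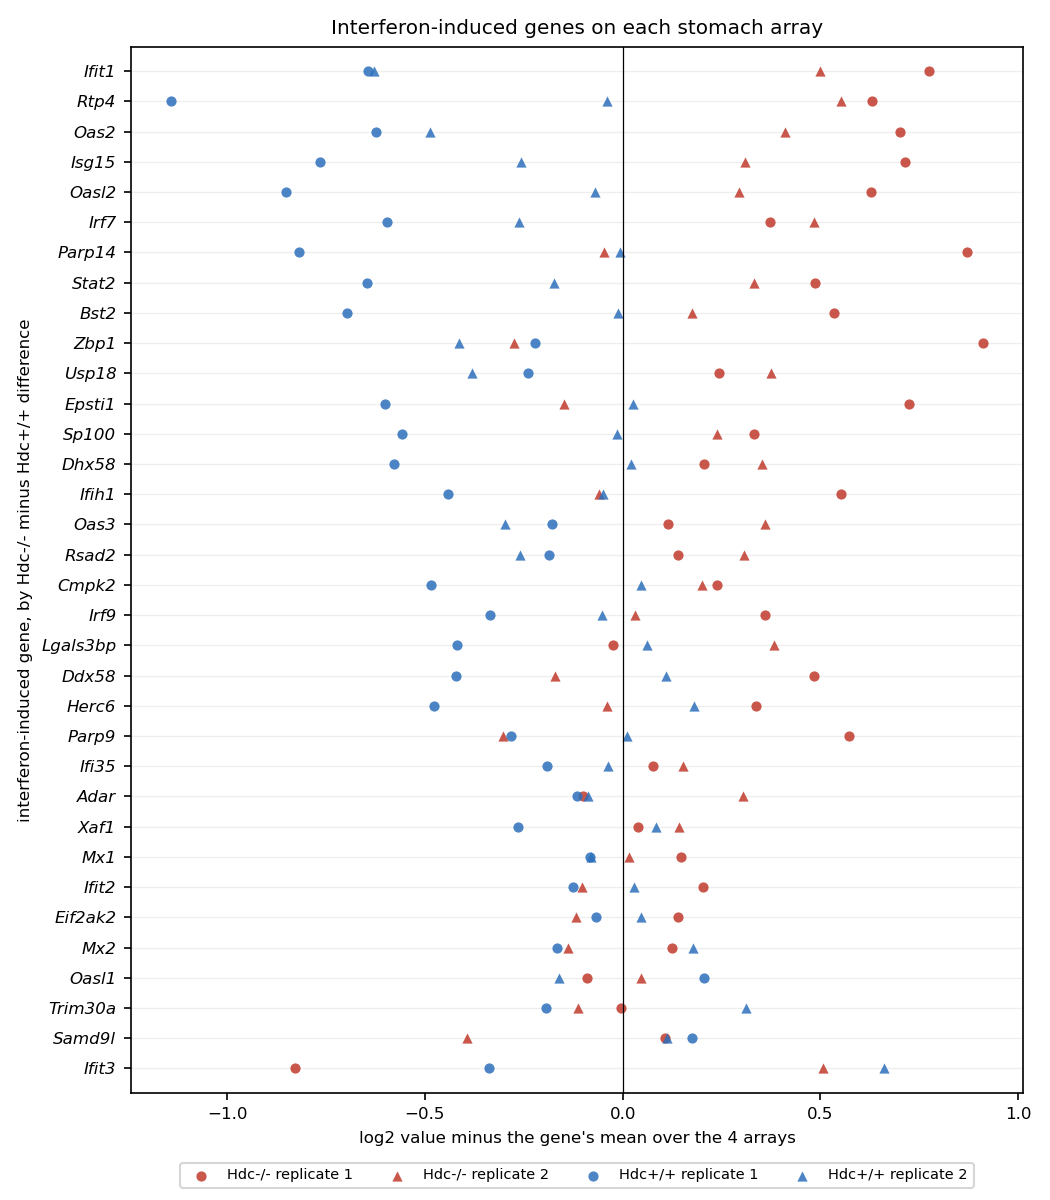
Log2 value of each of the 34 genes on each array minus that gene's mean over the 4 arrays (x axis); red is Hdc-/- and blue Hdc+/+, circles are replicate 1 and triangles replicate 2. Red points stand right of both blue points in 17 genes, from Ifit1 at the top to Mx1, and Hdc+/+ replicate 1 is the lowest point in 25 of the 34 genes.

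The antiviral effectors include the 2 members with the smallest p, Ifit1 and Oas2. Ifit1, whose protein binds viral RNA that lacks the cap marks of the host, read 6.12 and 5.85 in Hdc-/- stomach and 4.71 and 4.72 in Hdc+/+ stomach. The log2 difference was 1.27 (SE 0.18, n = 2 each), a 2.42-fold higher level, with a limma adjusted p of 0.247 and an unadjusted p of 0.000471. The gap between the groups exceeded the spread within either of them. Ifit2 and Ifit3, of the same family and from the same gene cluster, did not share that gap. Ifit2 read 4.05 and 3.74 in Hdc-/- stomach and 3.72 and 3.87 in Hdc+/+ stomach, a difference of 0.10 (SE 0.19). It was dim, below the gene median on all 4 arrays, and Ifit3 was below it on 2. Ifit3 read 3.57 and 4.90 in Hdc-/- stomach and 4.06 and 5.06 in Hdc+/+ stomach, a difference of -0.32 (SE 0.52), and in each group replicate 2 was at least 1 log2 unit above replicate 1. In the gene table of GRCm38.p6, Ifit2 and Ifit3 stand next to each other and 4 annotated genes separate Ifit3 from Ifit1. The differences among the 3 were not tested against each other.

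Oligoadenylate synthetases make a small second messenger that activates an RNA-degrading enzyme. Oas2 read 6.22 and 5.93 in Hdc-/- stomach and 4.90 and 5.04 in Hdc+/+ stomach, a log2 difference of 1.11 (SE 0.18, n = 2 each) or 2.16-fold (limma adjusted p = 0.279). Its neighbour Oas3 read 5.40 and 5.65 in Hdc-/- stomach and 5.11 and 4.99 in Hdc+/+ stomach, a difference of 0.47 (SE 0.18). Neither gene overlapped between the groups. Oasl2, a relative that carries ubiquitin-like domains, read 7.0 and 6.66 in Hdc-/- stomach and 5.51 and 6.30 in Hdc+/+ stomach, a difference of 0.92 (SE 0.30). Oasl1, which in the mouse restrains the translation of Irf7, is separated from Oasl2 by 1 annotated gene and gave overlapping values. It read 7.89 and 8.03 in Hdc-/- stomach and 8.19 and 7.82 in Hdc+/+ stomach, a difference of -0.05 (SE 0.19). The probe set shared by Oas1a and Oas1g, which is outside the 34, read 5.32 and 5.44 in Hdc-/- stomach and 4.94 and 4.96 in Hdc+/+ stomach. Genes of this family are alike in sequence, so signal could not be assigned to 1 member with certainty.

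Isg15 encodes a ubiquitin-like protein that is attached to other proteins during the response. It read 5.15 and 4.75 in Hdc-/- stomach and 3.67 and 4.18 in Hdc+/+ stomach, a log2 difference of 1.02 (SE 0.25, n = 2 each) or 2.03-fold (limma adjusted p = 0.396). Usp18, the protease that removes Isg15 from its targets and also dampens the interferon receptor, read 5.33 and 5.46 in Hdc-/- stomach and 4.85 and 4.70 in Hdc+/+ stomach, a difference of 0.62 (SE 0.17). The groups did not overlap for either gene, and Usp18 differed little within a genotype. Herc6, the main ligase that attaches Isg15 in the mouse, did overlap: it read 6.03 and 5.65 in Hdc-/- stomach and 5.21 and 5.87 in Hdc+/+ stomach, a difference of 0.30 (SE 0.27).

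Bst2 (tetherin), which holds budding virus at the cell surface, read 5.35 and 4.99 in Hdc-/- stomach and 4.12 and 4.81 in Hdc+/+ stomach, a log2 difference of 0.71 (SE 0.28). Rsad2 (viperin), an enzyme that makes a chain-terminating nucleotide, read 4.56 and 4.73 in Hdc-/- stomach and 4.24 and 4.16 in Hdc+/+ stomach, a difference of 0.45 (SE 0.16). Cmpk2, a nucleotide kinase whose gene adjoins Rsad2, differed by 0.44 (SE 0.22). Both Hdc-/- values were the higher ones in these 3 genes, with Hdc+/+ replicate 2 close below them for Bst2 and Cmpk2. The other effectors lay nearer 0. Eif2ak2, the kinase that halts translation on double-stranded RNA, differed by 0.02 (SE 0.18), and Adar, which edits such RNA, by 0.20 (SE 0.20). Mx1 and Mx2, whose proteins trap viral particles, are annotated as transcribed pseudogenes in the reference assembly; they read at most 3.10 on any array, below the gene median, and differed by 0.16 (SE 0.16) and -0.01 (SE 0.20). Samd9l, a restriction factor, read 6.70 and 6.20 in Hdc-/- stomach and 6.77 and 6.70 in Hdc+/+ stomach, a difference of -0.29 (SE 0.22) that was -0.04 without Hdc-/- replicate 2. Without Hdc-/- replicate 1 it was -0.54, with an unadjusted limma p of 0.0402.

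All 3 transcription factor members had both Hdc-/- values above both Hdc+/+ values. Irf7, the factor that amplifies interferon production, read 6.64 and 6.75 in Hdc-/- stomach and 5.67 and 6.01 in Hdc+/+ stomach, a log2 difference of 0.86 (SE 0.19, n = 2 each) or 1.81-fold (limma adjusted p = 0.360). Stat2 read 6.86 and 6.71 in Hdc-/- stomach and 5.73 and 6.20 in Hdc+/+ stomach, a difference of 0.82 (SE 0.21). The gap for Irf9 was smaller: 5.59 and 5.26 in Hdc-/- stomach against 4.89 and 5.18 in Hdc+/+ stomach, a difference of 0.39 (SE 0.20).

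The sensors of viral nucleic acid had positive differences in 4 of 4 genes, from 0.31 to 0.64 on the log2 scale, and 0 of them reached an unadjusted p under 0.05. Dhx58 (LGP2), a helicase that tunes the other sensors, read 4.45 and 4.60 in Hdc-/- stomach and 3.67 and 4.26 in Hdc+/+ stomach. In the other 3 genes Hdc-/- replicate 1 alone stood above both Hdc+/+ arrays. Ifih1 (MDA5), which detects long double-stranded RNA, read 7.90 and 7.29 in Hdc-/- stomach and 6.91 and 7.30 in Hdc+/+ stomach. Ddx58 (RIG-I), which detects the uncapped ends of viral RNA, read 6.10 and 5.45 in Hdc-/- stomach and 5.20 and 5.73 in Hdc+/+ stomach. Zbp1, a sensor of left-handed nucleic acid, read 6.17 and 4.98 in Hdc-/- stomach and 5.04 and 4.85 in Hdc+/+ stomach, so that its difference of 0.64 was 0.04 without Hdc-/- replicate 1.

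Parp14 and Parp9, enzymes that attach ADP-ribose, shared the pattern of Ifih1, with Hdc-/- replicate 1 alone above both Hdc+/+ arrays. Parp14 read 7.44 and 6.53 in Hdc-/- stomach and 5.76 and 6.57 in Hdc+/+ stomach, a log2 difference of 0.82 (SE 0.40). Parp9 read 6.67 and 5.80 in Hdc-/- stomach and 5.81 and 6.11 in Hdc+/+ stomach, a difference of 0.27 (SE 0.32). Without Hdc-/- replicate 1 the differences were 0.36 (Parp14) and -0.17 (Parp9). The probe set shared by Parp9 and its partner Dtx3l, which is outside the 34, read 6.90 and 6.25 in Hdc-/- stomach and 5.99 and 6.61 in Hdc+/+ stomach. Sp100, a nuclear body protein, read 5.86 and 5.76 in Hdc-/- stomach and 4.97 and 5.51 in Hdc+/+ stomach, a difference of 0.57 (SE 0.23). Its direction depended on the probe set: the other 3 Sp100 probe sets, all dimmer, differed by 0.35, -0.10 and -0.62, and their average with the first gave 0.05. Trim30a, a tripartite motif protein, read 2.88 and 2.77 in Hdc-/- stomach and 2.69 and 3.20 in Hdc+/+ stomach, a difference of -0.12 (SE 0.22). Xaf1 and Ifi35 differed by 0.18 and 0.23.

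Among the remaining induced genes, Rtp4, whose protein restricts flaviviruses, had the second largest difference of the 34. It read 7.04 and 6.96 in Hdc-/- stomach and 5.27 and 6.37 in Hdc+/+ stomach, a log2 difference of 1.18 (SE 0.36, n = 2 each) or 2.27-fold (limma adjusted p = 0.486). The Hdc-/- arrays were close together and the Hdc+/+ arrays were not: the difference was 0.63 without Hdc+/+ replicate 1 and 1.73 without Hdc+/+ replicate 2. Epsti1 read 6.59 and 5.71 in Hdc-/- stomach and 5.26 and 5.89 in Hdc+/+ stomach. Lgals3bp, a secreted glycoprotein, read 9.05 and 9.46 in Hdc-/- stomach and 8.66 and 9.14 in Hdc+/+ stomach, and its second probe set had a difference of 0.58 against 0.36 for the first. The probe set shared by Ifi27l2a and Ifi27l2b, outside the 34, had a difference of -0.32.

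**Figure D3:**
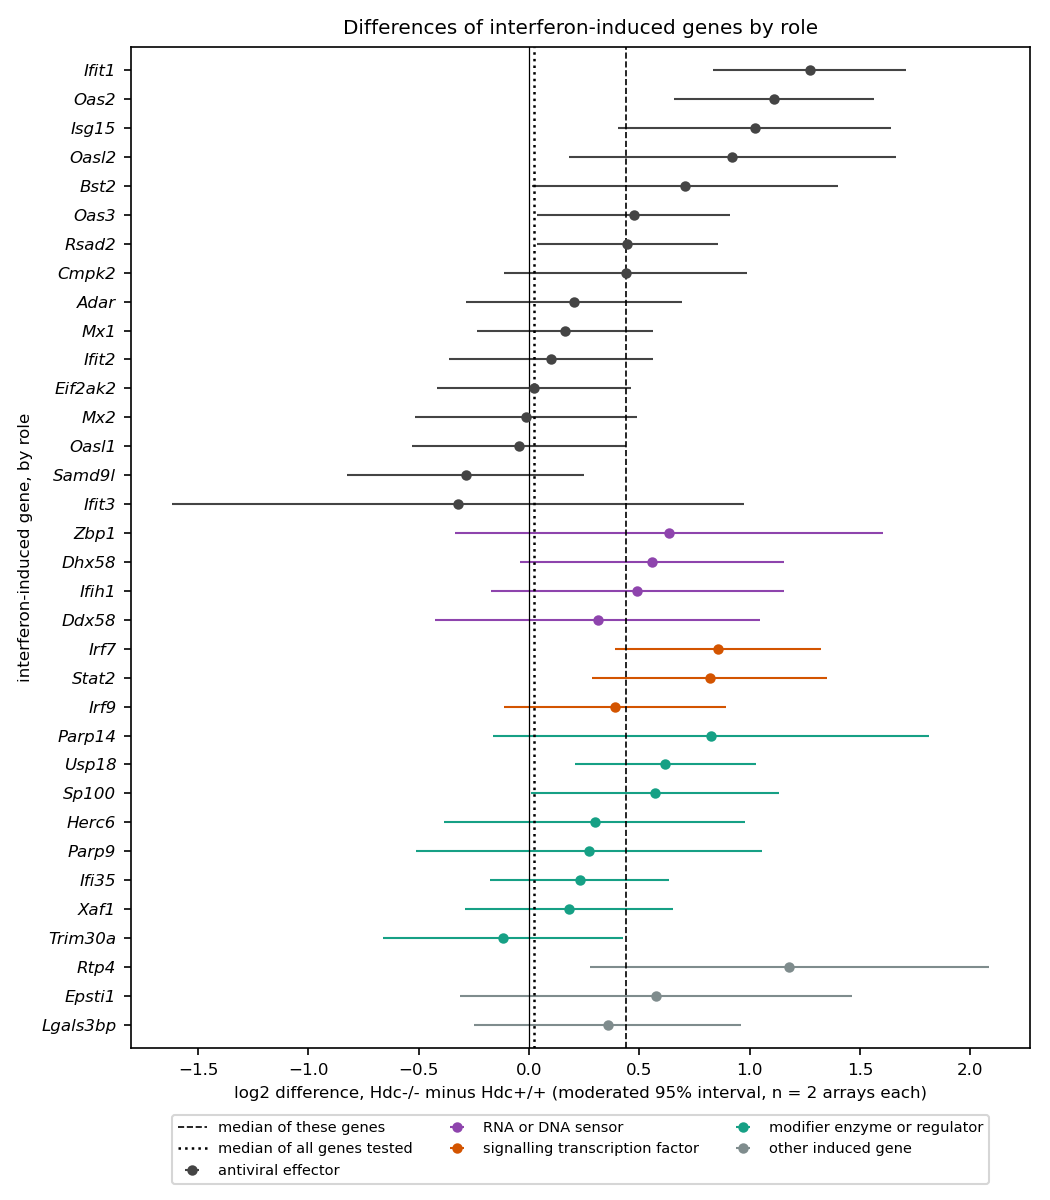
Log2 difference, Hdc-/- minus Hdc+/+ (x axis), with its moderated 95% interval for the 34 genes, grouped by role and coloured by it; the dashed line is the median of these genes (0.44) and the dotted line that of all genes tested (0.02). The interval lies above 0 in 12 genes, among them Irf7 and Stat2 of the 3 transcription factors, and in 0 of the 4 sensors.

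The members fell into patterns by array. In 17 both Hdc-/- arrays stood above both Hdc+/+ arrays (21.5% of all genes did), with a median log2 difference of 0.62. In 9 members (Parp14, Zbp1, Epsti1, Ifih1, Ddx58, Herc6, Parp9, Ifit2 and Eif2ak2) only Hdc-/- replicate 1 did, and their median difference was 0.31. In 3 (Lgals3bp, Adar and Xaf1) only Hdc-/- replicate 2 did, in 4 (Mx2, Oasl1, Trim30a and Ifit3) neither did, and in Samd9l both lay below (17.6% of all genes). The shares of all genes in the patterns with overlap were not counted. The patterns and their median differences came from the same values, so the order of those medians is partly built in. Hdc-/- replicate 1 read above Hdc-/- replicate 2 in 23 of the 34 members, against 46.9% of all genes. Hdc+/+ replicate 2 read above Hdc+/+ replicate 1 in 28 members, against 45% of all genes. Hdc-/- replicate 2 read above Hdc+/+ replicate 2, the pair of arrays whose medians over the members were nearest across the genotypes, in 22 members, against 55.8% of all genes. Single arrays therefore moved the counts. The median difference was 0.35 without Hdc-/- replicate 1, 0.52 without Hdc-/- replicate 2, 0.25 without Hdc+/+ replicate 1 and 0.56 without Hdc+/+ replicate 2. The 12 members higher at an unadjusted p under 0.05 became 7 of 34 without Hdc-/- replicate 1, with 1 lower (Samd9l), and 6 of 34 without Hdc+/+ replicate 1, each of these fits having 1 residual degree of freedom. The share of all genes higher at that threshold was then 4.05% and 2.11%. With each array left out in turn, Ifit1 stayed between 1.14 and 1.41 and Oas2 between 0.97 and 1.26.

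**Figure D4:**
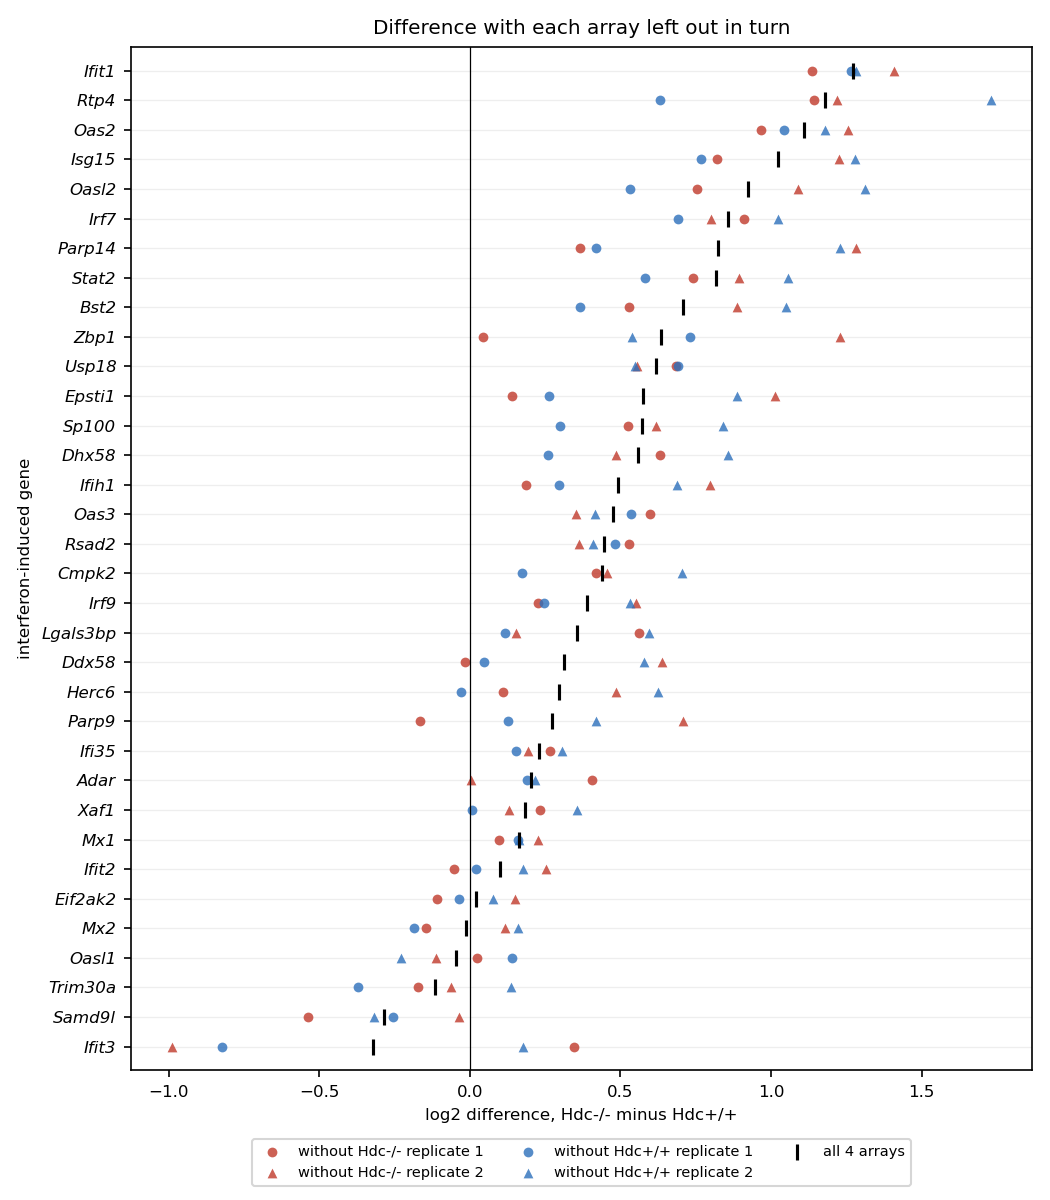
Log2 difference, Hdc-/- minus Hdc+/+ (x axis), of each of the 34 genes with all 4 arrays (black bar) and with each array left out (red without an Hdc-/- array, blue without an Hdc+/+ array). The points of Ifit1 stay between 1.14 and 1.41, whereas those of Ifit3 lie on both sides of 0.

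Other genes of the interferon pathway were read for comparison, and by limma 0 of them passed the adjusted threshold in either direction. Of 18 interferon genes, 2 were higher at an unadjusted p under 0.05 (3.68% of all genes) and 0 were lower (4.87%). The median log2 difference of the 18 was 0.06. The 2 higher genes, Ifnk and Ifna13, were both dim, below the gene median on all 4 arrays. Ifnk read 2.64 and 2.57 in Hdc-/- stomach and 2.29 and 1.92 in Hdc+/+ stomach. Ifna13 read 1.82 and 2.31 in Hdc-/- stomach and 1.64 and 0.88 in Hdc+/+ stomach. The interferon alpha genes are close copies of each other, so this signal could not be assigned with certainty. Ifnb1, the gene of interferon beta, differed by -0.08 (SE 0.17). The 6 receptor and kinase genes had a median of -0.22, with 0 higher and 1 lower at that p, and Ifnar1, Jak1 and Tyk2 differed by -0.27, 0.01 and -0.01. The lower gene was Il10rb, a subunit of the type III interferon receptor, which read 7.19 and 7.20 in Hdc-/- stomach and 7.62 and 7.80 in Hdc+/+ stomach.

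Upstream, the 13 genes of sensing and induction had a median log2 difference of 0.06. The difference was above 0 in 11 of the 13, against 54.1% of all genes. Both Hdc-/- values lay above both Hdc+/+ values in 3 (21.5% of all genes) and below in 2 (17.6%). At an unadjusted p under 0.05, 0 were higher (3.68% of all genes) and 0 lower (4.87%). The smallest p there was that of Mavs, the mitochondrial adaptor of Ifih1 and Ddx58, which read 8.09 and 8.45 in Hdc-/- stomach and 7.75 and 7.88 in Hdc+/+ stomach. The 8 genes of brakes and nucleic acid clearance had a median of 0.14 with 1 higher, Rnaseh2b (0.60, SE 0.24), a subunit of an enzyme that removes RNA from DNA, and 0 lower. In the interferon gamma branch of 9 genes the median was 0.17, and 8 of the 9 differences were above 0. Both Hdc-/- values lay above both Hdc+/+ values in 5 of them and below in 1. By unadjusted p, 0 were higher and 1 was lower. The lower one was the receptor gene Ifngr1 (-0.48, SE 0.18), and the induced chemokine genes Cxcl9 and Cxcl10 differed by 0.17 and 0.28.

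A further 34 interferon-induced genes outside the list had a median log2 difference of -0.01, with 16 above 0 and 18 below. At an unadjusted p under 0.05, 4 of these were higher (3.68% of all genes) and 0 lower (4.87% of all genes). Oas1g, of the synthetase family, read 6.21 and 5.69 in Hdc-/- stomach and 4.73 and 5.20 in Hdc+/+ stomach, a difference of 0.99 (SE 0.26), and Oas1b differed by 0.47 (SE 0.17). The others were Mndal, of a family of DNA-binding interferon-induced proteins, at 1.10 (SE 0.34), and Trim34a at 0.51 (SE 0.16). Oas1b, Mndal and Trim34a were dim, below the gene median on every array. Ifitm3, which blocks entry of viruses, read 7.82 and 7.94 in Hdc-/- stomach and 7.98 and 8.50 in Hdc+/+ stomach, and Isg20 and Helz2 differed by -0.21 and -0.02. Whether the listed and the further genes differ was not tested.

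By list median, pan-leukocyte markers and markers of T and NK cells ranked the 4 arrays as the interferon-induced genes did. Macrophage markers differed from that ranking only in the order of the Hdc-/- arrays, and B cell markers differed more widely. By summed level, markers of T and NK cells also had the Hdc-/- arrays in the other order. Around each gene's mean over the 4 arrays, the 34 members had medians of 0.29 and 0.16 on the Hdc-/- arrays and -0.38 and -0.03 on the Hdc+/+ arrays. The 5 pan-leukocyte markers had medians of 0.36 and 0.12 on the Hdc-/- arrays and -0.43 and -0.05 on the Hdc+/+ arrays. All 5 of these markers were measured and had positive differences, and their summed log2 level was 7.99 and 7.58 on the Hdc-/- arrays and 7.12 and 7.46 on the Hdc+/+ arrays. Of the 10 T and NK cell markers 8 were measured, with medians of 0.17 and 0.12 on the Hdc-/- arrays and -0.18 and -0.14 on the Hdc+/+ arrays. Of these 8, 3 were higher (3.68% of all genes) and 0 lower (4.87%) at an unadjusted limma p under 0.05. The summed level of the 8 was 7.98 and 7.99 on the Hdc-/- arrays and 7.37 and 7.67 on the Hdc+/+ arrays. The 8 macrophage markers, with 2 higher and 0 lower at that p, summed to 9.01 and 9.07 on the Hdc-/- arrays and 8.50 and 8.91 on the Hdc+/+ arrays. Their medians were 0.06 and 0.23 on the Hdc-/- arrays and -0.30 and -0.02 on the Hdc+/+ arrays. Of the 5 B cell markers 4 were measured, 1 with a positive difference (1.96) and 3 with a negative one, and the median difference was -0.18. Their array medians were -0.12 and -0.16 on the Hdc-/- arrays and -0.16 and 0.43 on the Hdc+/+ arrays. Their summed level was 8.72 and 7.04 on the Hdc-/- arrays and 6.04 and 7.58 on the Hdc+/+ arrays. Plasmacytoid dendritic cells are a known rich source of type I interferon. Their 7 markers had a median difference of 0.00, with 4 positive and 3 negative. At an unadjusted limma p under 0.05, 0 were higher and 1 was lower, Ly6d (-0.98, SE 0.17). Ly6d was by far the brightest of the 7, at 8.02 and 7.92 on the Hdc-/- arrays and 8.83 and 9.06 on the Hdc+/+ arrays. Which cell type gave the Ly6d signal was not tested. Siglech, the most selective of the 7, read 3.62 and 3.77 on the Hdc-/- arrays and 4.12 and 3.97 on the Hdc+/+ arrays. Ccr9 and Pacsin1 went the other way, with differences of 0.28 and 0.26. No marker can be called absent on this scale, which has no background value. The part of leukocyte number in the interferon-induced genes was not tested, and in bulk tissue more cells of a type and more RNA per cell cannot be told apart.

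**Figure D5:**
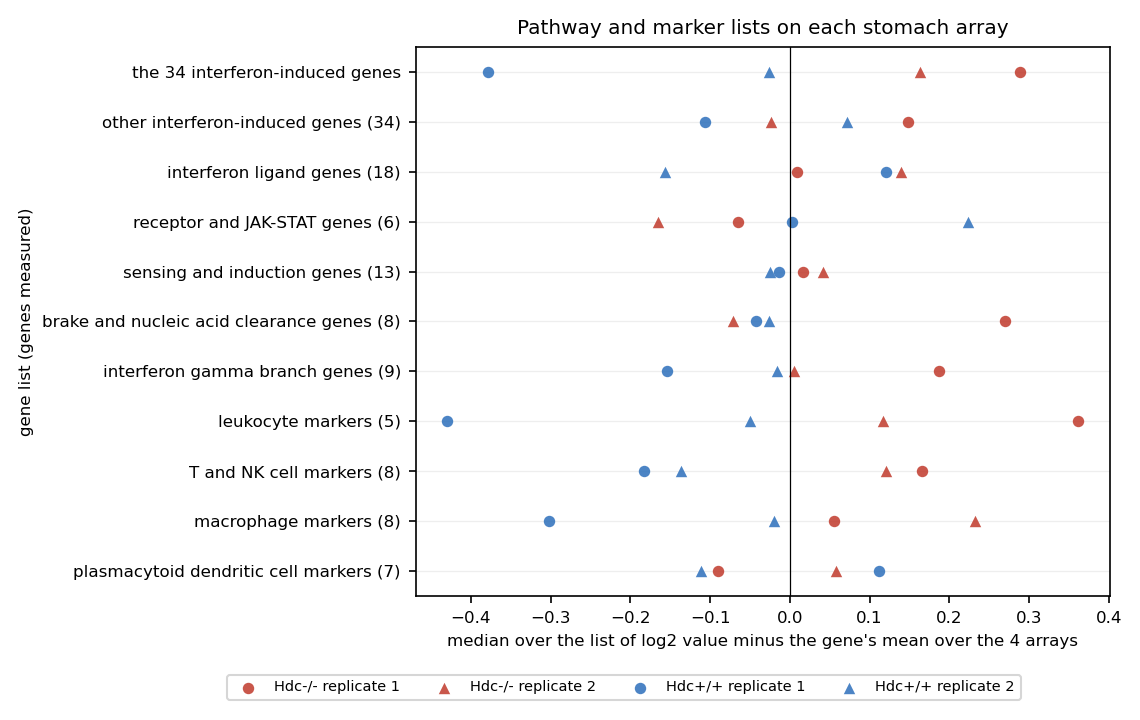
Median over each list of the log2 value minus the gene's mean over the 4 arrays (x axis), for the 34 genes, the pathway lists and the leukocyte marker lists; red is Hdc-/- and blue Hdc+/+, circles are replicate 1 and triangles replicate 2. The 34 genes and the 5 pan-leukocyte markers show the arrays in the same order, with Hdc+/+ replicate 1 lowest (-0.38 and -0.43).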

How the data were processed

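The deposited values are on the log2 scale, 1 per probe set, and were normalized by the authors with RMA. The submitters' processing notes list RMA, oligo and Affymetrix Power Tools and give no version or role. Labelled cDNA came from 5.5 ug of total RNA, per the labels' protocols. No source used here gives the genome build of the array annotation. Of 41345 probe sets, 23521 had 1 gene symbol, 1814 several and 16010 none in the platform annotation. A gene with several probe sets was read from the brightest one over the 4 arrays, which left 22180 genes. Genes of both genotypes were compared with limma 3.58.1 in R 4.3.3 (lmFit and eBayes, no covariate, 2 residual and 3.62 prior degrees of freedom) with p-values adjusted by Benjamini-Hochberg over the whole table at 0.05. Errors are moderated standard errors. A summed level is log2 of the sum of a list's linear values. Depth has no meaning for arrays, and their number limits the precision.

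The members, the lists and the tests were chosen with earlier results of these data known. Values on every array are given for the 12 members without overlap that had the smallest p and for the 4 with the lowest differences, and each pathway list is represented by up to 5 genes whose groups did not overlap and whose unadjusted p was under 0.05, or else by the gene with the smallest p. Other genes with values were chosen after these were seen. The alternatives left out dim genes, averaged probe sets, normalized again, changed the variance prior, used replicate blocks, left out each array and tested every probe set. Deviations of same-numbered arrays from their group means correlated at -0.12 across genes, and no label says that a number marks a shared animal or day.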

Additional observations from a re-analysis of the deposited data

How the results depend on the processing

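By limma 0 members passed after adjustment over all genes under each of the 14 alternatives. The median difference of the members ran from 0.41 to 0.48 under the alternatives that kept all arrays. It ran from 0.25 (without Hdc+/+ replicate 1) to 0.56 (without Hdc+/+ replicate 2) with an array left out. Members higher at an unadjusted p under 0.05 numbered 8 to 15 with all arrays and 6 to 12 with an array left out, and members lower numbered 0, and 0 to 1 with an array left out. Members with every Hdc-/- value above every Hdc+/+ value numbered 13 to 19 with all arrays. The 13 were of the 26 members left without the dimmest 50% of genes. With an array left out such members numbered 19 to 28, but 1 genotype then has 1 value and fewer values can overlap. Members with every Hdc-/- value below numbered 2 to 4 with an array left out and 0 with arrays centred on the median. The matching shares of all genes were not counted under these alternatives, so these counts could not be compared with all genes. With the replicate number as a block, 8 members were higher at that p (2.34% of all genes) against 12 without it (3.68%), and with the numbers crossed, chosen after seeing the data, 15 were (4.16%). Over all genes, limma called 7 with the replicate block, 0 with the crossed replicate block, 5 with the trended and robust prior, 0 when every probe set was tested and 0 to 161 with an array left out, the 161 without Hdc+/+ replicate 1. The cause was not tested. Among the 12 members with the smallest p and the 4 with the lowest differences, 3 changed sign when an array was left out. These were Ifit3 (-0.99 to 0.34), Oasl1 (-0.23 to 0.14) and Trim30a (-0.37 to 0.14). Of the other members, Parp9, Ddx58, Ifit2, Herc6, Eif2ak2 and Mx2 also changed sign with an array left out. No background values were used, so it is not known whether dim members such as Mx1, Mx2, Ifit2, Trim30a and Dhx58 had a measurable level.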
